A study of Mus musculus with 9 samples.

Results

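The trapezius, a muscle of the neck and shoulder girdle that carries the shoulder blade, was compared with the supraspinatus of the shoulder blade and the triceps of the upper forelimb. These are 3 of the 9 arrays of the series, 1 for each muscle, chosen by their labels and not by their values. All came from male C57BL/6J mice (an inbred laboratory strain) aged 12 weeks, with no treatment or genetic change named in the labels. Total RNA of frozen whole muscle was hybridised to GeneChip Mouse Gene 2.0 ST arrays, which measure whole transcripts, and the sources do not say if animals were pooled. With 1 array per muscle there are no replicates, so no test was made, and differences between muscles, animals, dissections and arrays cannot be told apart. For each of 22180 genes the comparison gives the gap, which is the log2 value of the trapezius minus that of the nearer of the other arrays where the trapezius lies outside both, and 0 where it lies between them. A gap of 1 is a 2-fold difference in the deposited values.

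Skeletal muscle is built of slow fibres, which are oxidative and resist fatigue, and of fast fibres, which are stronger and tire sooner, and each kind uses its own isoforms of myosin, troponin and the calcium pump. Fat lies between and beside muscles: white adipocytes store triglyceride in a single large droplet, and brown adipocytes burn it to make heat through the mitochondrial carrier Ucp1. In the mouse a large depot of brown fat lies between the shoulder blades. Tendon cells make the small proteoglycans and glycoproteins that order collagen where a muscle is attached.

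The trapezius lay above both other arrays by at least 1 for 95 genes, which is 0.428% of all genes, and below both by at least 1 for 27 genes, or 0.122%. The gap was at least 2 for 20 genes above (0.0902%) and 2 below (0.00902%). Any gap was found above both for 29.4% of genes and below both for 31.6%. Counts of list members above or below both, given in what follows, are to be read beside these shares. Beyond all 8 other arrays by at least 1, the trapezius was higher for 51 genes (0.23%) and lower for 1 (0.00451%), the tendon gene Kera. The same count for the supraspinatus was 21 genes above and 21 below the other arrays (0.0947% each), and for the triceps 106 above (0.478%) and 130 below (0.586%). The genes above in the trapezius were led by genes of brown and white adipocytes and of fatty acid synthesis, with a smaller set of slow fibre genes. The genes below were led by tendon genes. Of the 95 genes above, 19 were on the adipocyte lists, 7 on the lists of metabolic genes that fat and muscle share, and 6 on lists of muscle genes. A further 61 were on no list.

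**Figure D1:**
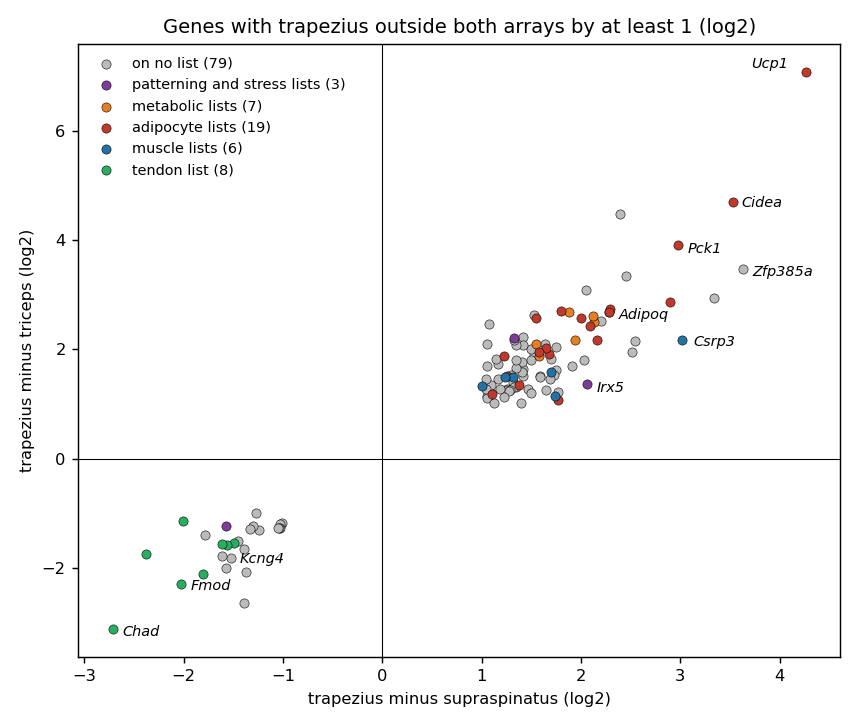
Each point is 1 gene whose trapezius value lies outside both other arrays by at least 1 (log2), with the difference from the supraspinatus on the horizontal axis and from the triceps on the vertical axis, coloured by gene list with the number of genes in the legend. The adipocyte gene Ucp1 lies farthest up and to the right, followed upward by Cidea and to the right by Zfp385a, which is on no list. The tendon gene Chad lies farthest down and to the left.

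The arrays of the trapezius and the supraspinatus were the more alike, with a Pearson correlation over genes of 0.986, against 0.976 for trapezius and triceps and 0.978 for supraspinatus and triceps. Genes are not independent replicates, so this is a description. The SD over probe sets was 2.05 on the trapezius array, 2.03 on the supraspinatus array and 1.96 on the triceps array, the smallest of the 3. The difference from the supraspinatus is therefore given below beside that from the triceps. Genes of the contractile apparatus were high on all 3 arrays. The skeletal actin gene Acta1 was at 12.89 in the trapezius, 12.86 in the supraspinatus and 12.91 in the triceps, and the muscle creatine kinase gene Ckm at 12.70, 12.68 and 12.79 in the same order. Over 22 pan-muscle structural genes the median of the trapezius minus the mean of the other arrays was 0.13 on the log2 scale, against a median of -0.00 over all genes.

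Brown adipocyte genes gave the 2 largest gaps of the comparison. Ucp1, which uncouples respiration from ATP synthesis, was at 9.36 in the trapezius, 5.10 in the supraspinatus and 2.28 in the triceps, and from 2.19 to 2.72 in the 6 other muscles. The gap was 4.26, or 19.2-fold. The trapezius and, less so, the supraspinatus stood above the array medians of 3.34 to 3.44 for this gene. The 7 other arrays were under them, where signal cannot be told from background. A gap against a value under the array median, here and for the genes that follow, is therefore not exact and may understate the difference. Cidea, a lipid droplet protein of brown adipocytes, was at 9.22 in the trapezius, 5.69 in the supraspinatus and 4.51 in the triceps, with a gap of 3.53 (11.5-fold). In whole tissue, more cells of a type and more RNA per cell of that type cannot be told apart.

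The stretch around the start of the Ucp1 gene is shown because no other gene was so far from both arrays. It is the RefSeq promoter window on GRCm38.p6, chr8:83290098-83290397 on the + strand, from 250 bases before the start of transcription to 50 after it. Capitals mark the single match to AGGTCA, a short motif bound by nuclear receptors, searched on both strands, which begins 14 bases before the start.
Ucp1: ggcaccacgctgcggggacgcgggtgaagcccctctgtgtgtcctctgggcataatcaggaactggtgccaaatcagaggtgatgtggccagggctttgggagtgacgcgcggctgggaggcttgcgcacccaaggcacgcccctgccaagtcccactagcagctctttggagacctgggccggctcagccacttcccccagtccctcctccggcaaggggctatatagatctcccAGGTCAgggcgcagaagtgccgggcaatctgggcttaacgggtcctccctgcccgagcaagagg
The same letters were found in 16.3% of 32851 promoter windows in the table, and in 19 of 79 windows (24.1%) of genes above both arrays by at least 1. A match describes these letters and is not a measured binding site.

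Of 18 measured brown adipocyte markers, 15 lay above both other arrays, 7 of them by at least 1, and 1 lay below both. On all 3 arrays 13 of the 18 were under 5. The median difference was 0.78, with 0.68 against the supraspinatus and 0.96 against the triceps. Slc27a2, a fatty acid transporter and acyl-CoA synthetase, was at 4.68 in the trapezius, 1.78 in the supraspinatus and 1.80 in the triceps. Its other probe set had a gap of 0.27. Elovl3, which lengthens fatty acids in brown fat, was at 4.28 in the trapezius, 2.12 in the supraspinatus and 2.11 in the triceps. Both stood above the array median in the trapezius only. Ntrk3, the neurotrophin-3 receptor, had a gap of 1.65, Otop1, a proton channel, of 1.58, and Mpzl2, an adhesion protein, of 1.11. The supraspinatus values behind the gaps of Ntrk3 and Otop1, 3.29 and 3.22, were under the median of that array, 3.39. The trapezius array held the highest value of the 9 arrays for all 7.

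Several regulators named for brown fat were not far from the other arrays. Prdm16, a transcriptional regulator of brown fat identity, had a gap of 0.56, with one probe set above and the other below both arrays. Ebf2, a factor of brown preadipocytes, had a gap of 0.14, and Zic1 and Lhx8, markers of classical brown fat, had gaps of 0.01 and 0.05 at values of 3.15 and 2.93. Dio2, the deiodinase that activates thyroid hormone in brown fat, lay between the other arrays. Bmp8b was the 1 marker below both, at 3.20 in the trapezius, 3.81 in the supraspinatus and 4.38 in the triceps. Among the listed regulators none reached a gap of 1, and most of them were at low values.

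Genes of the white adipocyte list differed more evenly. The kind of adipocyte behind the values of this list was not tested. Of 18 measured markers, 17 lay above both other arrays, 12 of them by at least 1, and 1 below both. The median difference was 1.49, with 1.46 against the supraspinatus and 1.69 against the triceps. Pck1, which makes glycerol for triglyceride in fat, was at 9.23 in the trapezius, 6.25 in the supraspinatus and 5.33 in the triceps, a gap of 2.98 (7.88-fold). Adipoq, the gene of the adipocyte hormone adiponectin, was at 6.67 in the trapezius, 4.39 in the supraspinatus and 3.98 in the triceps. Both genes were lowest in the triceps of the 3, and the trapezius value was the highest of the 9 arrays.

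Genes of the adipocyte's lipid droplet and of its identity were also higher in the trapezius. Cidec, which fuses lipid droplets, was at 8.32 in the trapezius, 6.03 in the supraspinatus and 5.58 in the triceps. Plin1, the droplet coat protein, was at 7.24 in the trapezius, 5.24 in the supraspinatus and 4.66 in the triceps. Pparg, the master transcription factor of fat cells, was at 6.88 in the trapezius, 4.79 in the supraspinatus and 4.46 in the triceps, and Cebpa, its partner, had a gap of 1.07. Further gaps were 1.80 for Trarg1, a regulator of glucose transporter traffic, 1.68 for Agpat2, an enzyme of triglyceride synthesis, 1.35 for the hormone-sensitive lipase gene Lipe and 1.23 for the resistin gene Retn. The leptin gene Lep was at 3.07 in the trapezius, 2.49 in the supraspinatus and 2.11 in the triceps, all under the array medians. Plin4, which muscle also expresses, had a gap of 0.12, and Nnat lay below both by 0.07, while its dimmer probe set lay above both.

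**Figure D2:**
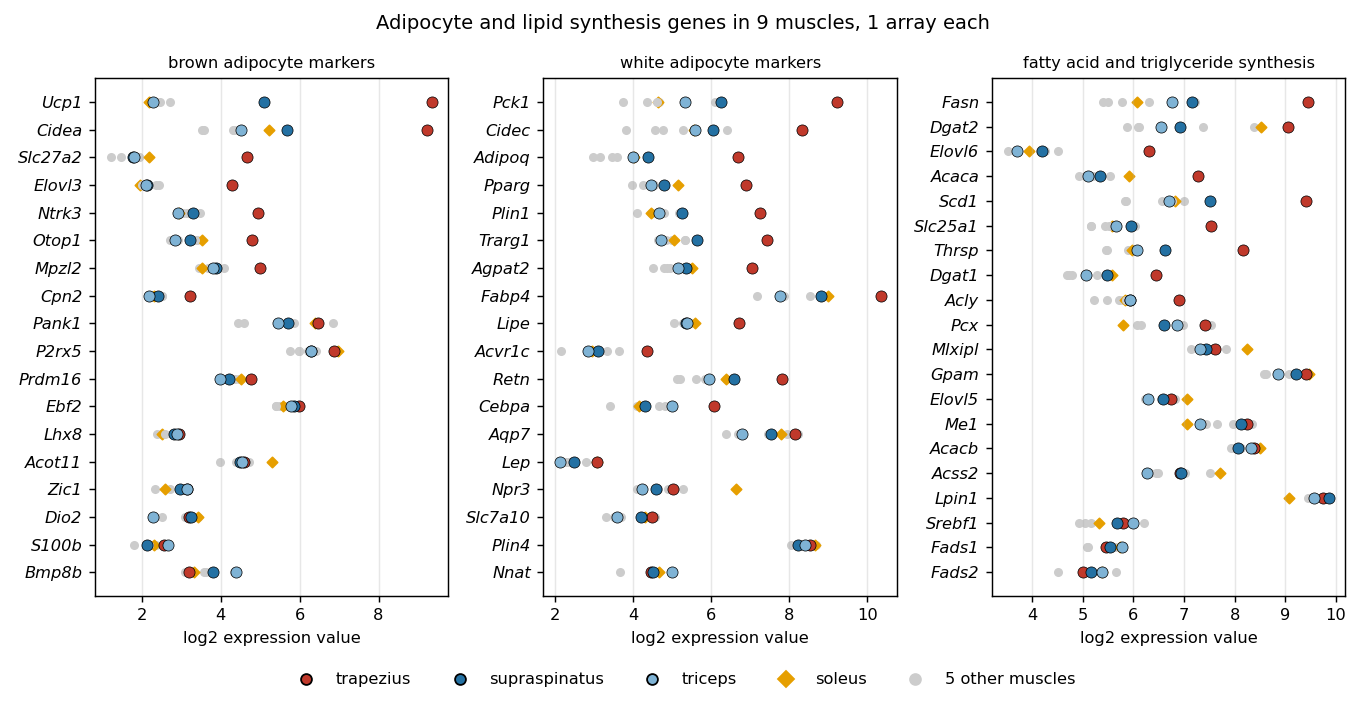
The log2 value of each measured gene of 3 lists (rows) on each array, with the trapezius in red, the supraspinatus in dark blue, the triceps in light blue, the soleus as orange diamonds and 5 other muscles in grey, 1 array each and no error bars. The trapezius stands apart to the right in the upper rows, with Ucp1 at 9.36 and Pck1 at 9.23, and lies among the other muscles in the lower rows.

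Enzymes that build fatty acids were also higher on the trapezius array. Of 20 measured genes of fatty acid and triglyceride synthesis, 15 lay above both, 7 by at least 1, and 2 below both, with a median difference of 0.61. The fatty acid synthase gene Fasn was at 9.45 in the trapezius, 7.16 in the supraspinatus and 6.76 in the triceps. Scd1, which desaturates fatty acids, was at 9.40 in the trapezius, 7.52 in the supraspinatus and 6.71 in the triceps. Both were higher in the trapezius than on any of the 8 other arrays. Gaps of the same pathway were 2.13 for Dgat2, the last step of triglyceride synthesis, 2.12 for the elongase gene Elovl6, 1.58 for the citrate carrier gene Slc25a1 and 1.54 for Thrsp. Against this, the desaturase genes Fads1 and Fads2 lay below both, by 0.08 and 0.17.

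Related genes, one used mainly by muscle and one by other tissues, were set side by side. The Acac, Gys, Pyg and Cox6a pairs were chosen after their values were seen. Ucp3, the muscle relative of Ucp1, was at 8.06 in the trapezius, 8.03 in the supraspinatus and 8.02 in the triceps, a gap of 0.04 beside the 4.26 of Ucp1. Fabp4, the fatty acid binding protein of adipocytes and small vessels, was at 10.35 in the trapezius, 8.81 in the supraspinatus and 7.77 in the triceps. Fabp3, that of muscle, lay below both, at 6.91 in the trapezius, 7.27 in the supraspinatus and 7.22 in the triceps. On the dimmer probe set of Fabp3 the trapezius lay between the other arrays. Acaca, the acetyl-CoA carboxylase of lipid-making tissues, had a gap of 1.94, and Acacb, that of muscle, of 0.05.

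The same was seen for enzymes of glycogen and respiration. Gys2, the glycogen synthase of liver that fat also uses, was at 4.66 in the trapezius, 2.15 in the supraspinatus and 2.71 in the triceps, while the muscle gene Gys1 lay between the other arrays at 10.23. Pygl, the liver glycogen phosphorylase, was at 5.43 in the trapezius, 3.53 in the supraspinatus and 3.74 in the triceps, and the muscle gene Pygm lay between the other arrays. Cox6a1, the general form of a cytochrome oxidase subunit, was at 10.57 in the trapezius, 9.15 in the supraspinatus and 9.05 in the triceps. Its heart and muscle counterpart Cox6a2 lay below both by 0.14. In each of these 6 pairs the non-muscle member lay above both arrays by more than 1, and the muscle member was within 0.4 of the nearer array. For the Acac, Gys, Pyg and Cox6a pairs this was known when they were chosen, so the count of pairs is no evidence of a pattern. Probe sets of related genes can share signal, and the levels of different genes are not compared.

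Listed genes of oxidative metabolism, which brown fat and slow muscle both use, had no gap of 1 on the probe sets used. The subunit gene Cox6a1, on no list, had a gap of 1.41. The median of fatty acid oxidation was nonetheless the same, after rounding, as that of synthesis. Of 18 measured genes of fatty acid oxidation, 17 lay above both, 0 by at least 1, with a median difference of 0.61 (0.44 against the supraspinatus and 0.78 against the triceps). The largest gap was that of the thiolase gene Acaa2, at 9.29 in the trapezius, 8.37 in the supraspinatus and 8.15 in the triceps. Among 20 respiratory chain and citrate cycle genes, 10 lay above both and 1 below, with a median difference of 0.14, of which 0.00 was found against the supraspinatus and 0.29 against the triceps. Of 15 genes known from both brown fat and oxidative muscle, 10 lay above both and 0 by at least 1. Among these, the lipoprotein lipase gene Lpl had a gap of 0.90, and of 1.31 on its dimmer probe set. The carbonic anhydrase gene Car3 had a gap of 0.61, and of 0.90 on its dimmer probe set. The cytochrome oxidase subunit genes Cox7a1 and Cox8b lay between the other arrays. The adipocyte and the slow fibre lists were both higher in the trapezius, and the part of either in these metabolic differences was not tested.

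Slow fibre genes were the clearest muscle group above both arrays. Of 17 measured genes, 16 lay above both, 5 by at least 1, and 0 below both, with a median difference of 1.37. Here the difference from the supraspinatus, at 1.49, was larger than that from the triceps, at 0.99. Csrp3, the muscle LIM protein of the Z-disc, was at 9.17 in the trapezius, 6.15 in the supraspinatus and 7.0 in the triceps. Atp2a2, the calcium pump of slow fibres and heart, was at 9.04 in the trapezius, 7.30 in the supraspinatus and 7.90 in the triceps, while the fast pump gene Atp2a1 lay below both by 0.03. Both slow genes stood between the other shoulder muscles and the soleus, a slow muscle of the calf. The soleus was at 10.68 for Csrp3 and 11.62 for Atp2a2. For Csrp3 the digastric, at 9.06, and the masseter were also close to the trapezius value. For Atp2a2 the digastric and the masseter were lower than the trapezius, at 8.21 and 6.92.

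The Csrp3 window is shown as that of the slow fibre gene with the largest gap. It is 1 of 2 RefSeq windows of this gene, GRCm38.p6 chr7:48848002-48848301 on the - strand, with 2 matches on either strand to TTGCNNAA, a form of site bound by C/EBP factors, in capitals. No match was found in this window to the MEF2 box, to AGGTCA or to CAGCTG (an E-box).
Csrp3: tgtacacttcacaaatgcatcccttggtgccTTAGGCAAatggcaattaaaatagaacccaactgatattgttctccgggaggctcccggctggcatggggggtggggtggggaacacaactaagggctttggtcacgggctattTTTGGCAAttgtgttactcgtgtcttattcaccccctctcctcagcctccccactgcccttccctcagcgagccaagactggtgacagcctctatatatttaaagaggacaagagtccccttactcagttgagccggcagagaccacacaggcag
The C/EBP form was found in 10.8% of all windows and in 13.9% of the windows of genes above both by at least 1. The MEF2 box was in 3.69% and 1.27%, and the E-box in 16.3% and 17.7%, in the order of all windows and of genes above both.

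Several slow sarcomere genes were higher in the triceps than in the supraspinatus, and others were not. Myh7, the slow myosin heavy chain, was at 8.64 in the trapezius, 4.43 in the supraspinatus and 7.66 in the triceps. In the soleus it was at 11.62, and in the gastrocnemius at 8.53, near the trapezius value. The supraspinatus was the lowest of the 3 arrays compared by far, so the gap of the trapezius to the nearer array, the triceps, was 0.98. The slow troponin genes Tnni1, Tnnt1 and Tnnc1 had gaps of 0.99, 0.92 and 0.80, each with the trapezius highest, the triceps next and the supraspinatus lowest. The other order was seen for the slow tropomyosin gene Tpm3, at 7.25 in the trapezius, 6.01 in the supraspinatus and 5.75 in the triceps, and for Ankrd2, at 8.85, 7.54 and 7.36 in the same order. The dimmer probe set of Tpm3 had a gap of 0.16. Sarcolipin, Sln, an inhibitor of the calcium pump, was at 4.05 in the trapezius, 2.35 in the supraspinatus and 2.47 in the triceps, and its relative phospholamban, Pln, had a gap of 0.12. Myoz2, a Z-disc protein of slow fibres, and Trdn, a protein of the calcium release complex, were the closest to a gap of 1, Trdn just over it and Myoz2 just under.

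Fast fibre genes did not separate the arrays. Of 18 measured genes 6 lay above both and 7 below, 0 by at least 1, with a median difference of -0.00. Myh4, the heavy chain of the fastest fibres, was at 12.84 in the trapezius, 12.88 in the supraspinatus and 12.86 in the triceps. Myh2, that of fast oxidative fibres, had the largest gap of the list, at 10.15 in the trapezius, 9.49 in the supraspinatus and 9.74 in the triceps. Values near 13 are at the top of the range of these arrays, whose highest values were 13.32 in the trapezius, 13.31 in the supraspinatus and 13.43 in the triceps, and differences there can be compressed. Of 15 glycolysis and glycogen genes 3 lay above both and 5 below, with a median difference of -0.03.

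**Figure D3:**
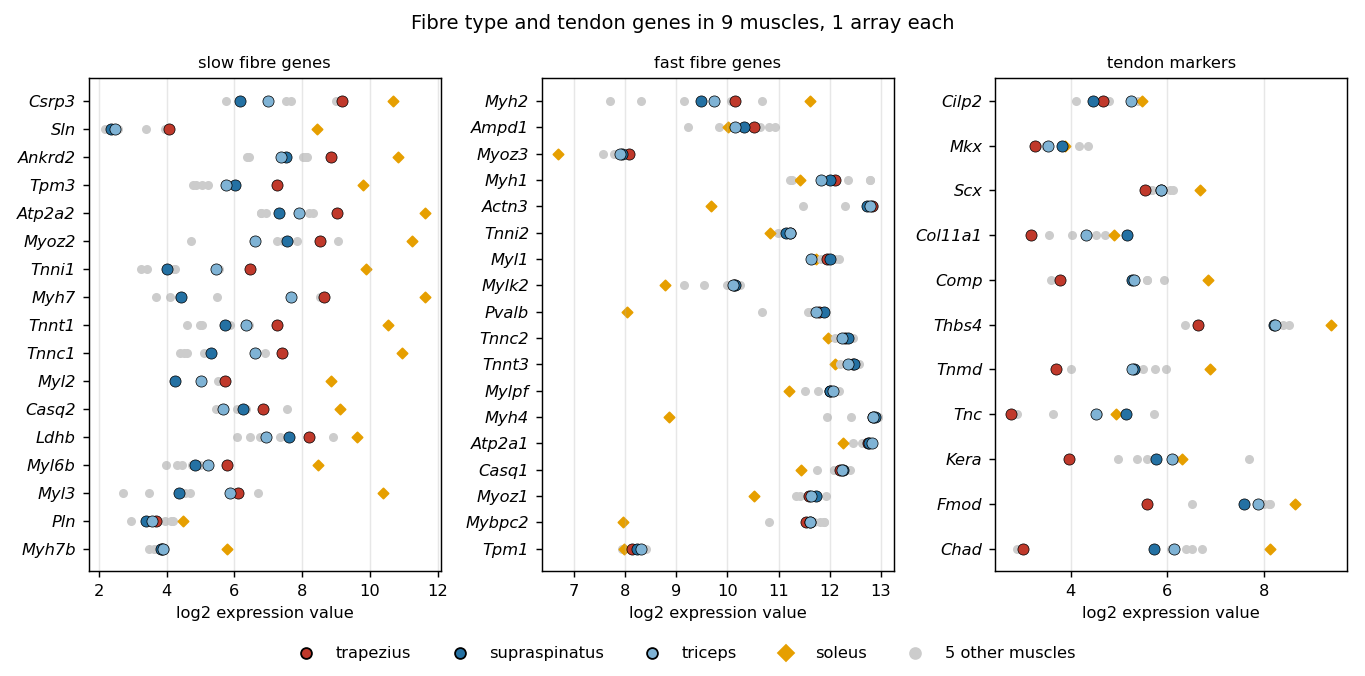
The log2 value of each measured slow fibre, fast fibre and tendon gene (rows) on each of 9 arrays, 1 per muscle, with the trapezius in red, the supraspinatus in dark blue, the triceps in light blue and the soleus in orange. In the slow fibre panel the trapezius lies between the other shoulder muscles and the soleus for most genes, in the fast fibre panel the 3 arrays overlap, and in the tendon panel the trapezius lies left of both for most genes.

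The genes above both arrays were also described by the 6 muscles that were not compared. Among those 6 arrays alone, the soleus exceeded the 5 others by at least 1 for 109 genes, or 0.491% of all genes. Of the 19 adipocyte and 7 shared metabolic genes above both by at least 1 in the trapezius, 0 were soleus genes by this measure, a count that the share of all genes would also give. The trapezius was the highest of all 9 arrays for each of them, and for 77 of all 95 genes above both by at least 1. That choice of genes favours a high rank, so the 7.32% of all genes for which the trapezius was highest, and the 7.75% for which it was lowest, are no measure for these counts. Of the 6 genes on muscle lists, 5 were soleus genes (Csrp3, Sln, Ankrd2, Tpm3 and Atp2a2), and the trapezius was the highest of the 9 for 0. The sixth was Trdn, at 7.62 in the trapezius and lower in the soleus, at 6.30, than in any other of the 6. The soleus was below the 5 others by at least 1 for 0.158% of genes. The slow fibre list was drawn up with the fibre type of the soleus known, so its members are no independent evidence. Over the same 6 arrays, of the 95 genes 10 had a Pearson r of at least 0.8 with the mean of the white list and 10 with the brown. For the slow fibre list the count was 8, and for the tendon list, which was lower in the trapezius, 6. The shares of all genes were 2.73%, 2.8%, 2.9% and 2.18% for the white, brown, slow fibre and tendon lists. Of the 19 adipocyte genes 2 passed for the white list and 1 for the brown, for which 3 of the 6 muscle genes also passed. Ucp1, under the array medians on these 6 arrays, had an r of -0.81 with the brown list. The counts thus do not sort the genes into fat and muscle. The 6 points share 1 normalization, and a member of a list was left out of the mean it was set against.

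Genes on no list were described in the same way. Of the 61 above both by at least 1, the trapezius was highest of the 9 arrays for 51 and beyond all 8 others by at least 1 for 28, and 2 were soleus genes, Zfp385a and Agbl1. Prkar2b, a regulatory subunit of protein kinase A, was at 7.20 in the trapezius, 3.86 in the supraspinatus and 4.26 in the triceps, and at most 3.64 in the 6 other muscles. Cdo1, cysteine dioxygenase, was at 8.13 in the trapezius, 5.74 in the supraspinatus and 3.65 in the triceps. Lgals12, a galectin of lipid droplets, was at 6.79 in the trapezius, 4.34 in the supraspinatus and 3.45 in the triceps. For these 3 genes the trapezius was above each of the 8 other arrays by at least 1.

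Others of that kind have known roles in fat. Slc36a2, an amino acid transporter of brown adipocytes, was at 7.71 in the trapezius, 5.66 in the supraspinatus and 4.62 in the triceps. Letmd1, a mitochondrial inner membrane protein needed for heat production in mouse brown fat, was at 8.05 in the trapezius, 6.45 in the supraspinatus and 6.53 in the triceps. Haptoglobin, Hp, a plasma protein also made by adipocytes, had a gap of 2.15, the insulin-responsive phosphodiesterase gene Pde3b of 1.80 and the lipoprotein lipase inhibitor gene Angptl4 of 1.54. Below a value of 5, and thus less sure, were Klb, the co-receptor for the hormone Fgf21, at 4.60 in the trapezius, 2.85 in the supraspinatus and 2.97 in the triceps, and the adipogenin gene Adig, at 4.42, 3.0 and 2.18 in the same order.

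A smaller number of genes on no list were high in other muscles as well. Myom3, a protein of the M-band, was at 7.60 in the trapezius, 6.18 in the supraspinatus and 5.95 in the triceps, with 9.38 in the soleus, 8.48 in the digastric and 7.83 in the masseter. Sbk2, a kinase gene, was at 8.19 in the trapezius, 5.99 in the supraspinatus and 5.67 in the triceps, beside 8.13 in the masseter and 7.55 in the soleus. Smtnl1, a smoothelin-like protein, was at 7.75 in the trapezius, 6.70 in the supraspinatus and 6.06 in the triceps, and reached 9.11 in the soleus. Zfp385a, a zinc finger gene, was at 8.97 in the trapezius, 5.33 in the supraspinatus and 5.49 in the triceps, with 7.04 in the soleus, the next highest of the 9. For Myom3 and Smtnl1 the trapezius was not the highest array.

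**Figure D4:**
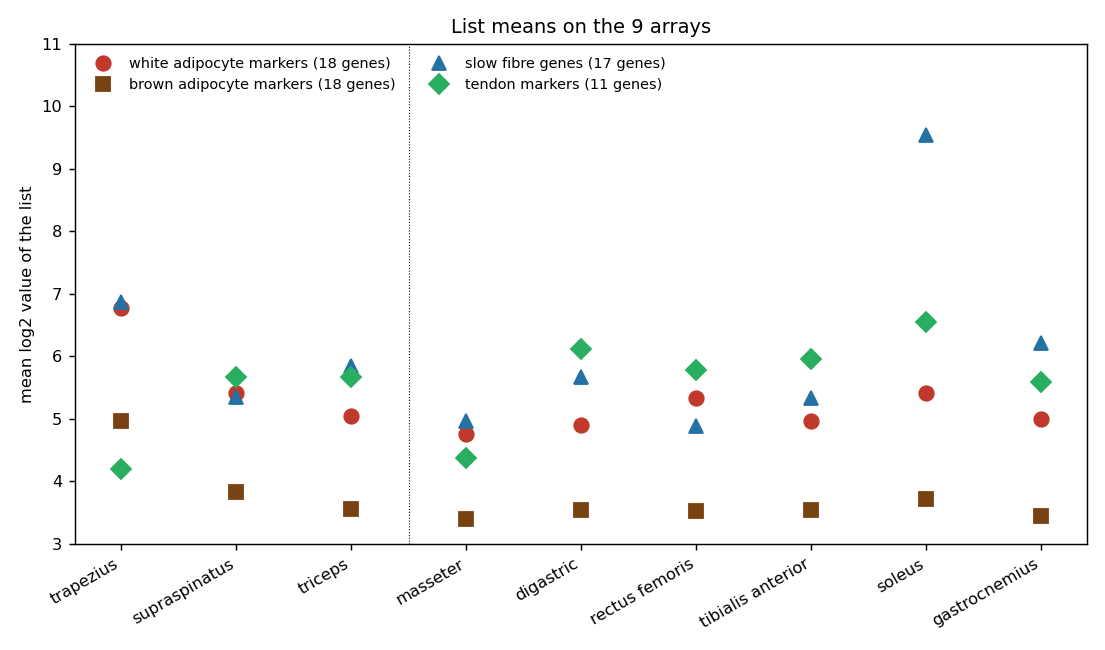
Mean log2 value of 4 gene lists on each array, with the 3 arrays compared left of the dotted line and the 6 other muscles right of it, 1 array each and no error bars. The white and brown adipocyte means are highest in the trapezius (6.77 and 4.96), the slow fibre mean is highest in the soleus (9.55) with the trapezius next (6.87), and the tendon mean is lowest in the trapezius (4.19). Values are to be compared between arrays within a list.

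Tendon genes were the clearest group below both arrays. Of 11 measured markers, 10 lay below both, 8 of them by at least 1, and 0 above both, with a median difference of -1.58, of -1.61 against the supraspinatus and of -1.57 against the triceps. Chad, chondroadherin, was at 3.01 in the trapezius, 5.73 in the supraspinatus and 6.14 in the triceps, a gap of -2.71. The trapezius value was under the array median of 3.34, so the size of this gap is not exact. Fmod, fibromodulin, which shapes collagen fibrils, was at 5.57 in the trapezius, 7.59 in the supraspinatus and 7.88 in the triceps, and its other probe set had a gap of -0.92. For both the supraspinatus and the triceps were close to each other.

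The mature tendon genes Tnmd, Thbs4, Comp, Kera and Tnc gave the same picture. Tnmd, tenomodulin, a surface protein of tendon cells, was at 3.70 in the trapezius, 5.31 in the supraspinatus and 5.27 in the triceps. Thbs4, a matrix protein of tendon and muscle, was at 6.64 in the trapezius, 8.20 in the supraspinatus and 8.23 in the triceps. The proteoglycan gene Kera had a gap of -1.81, the tenascin C gene Tnc of -1.75 and Comp of -1.49. Tnc, at 2.77 in the trapezius, was also under the array median there. The tendon transcription factor genes Scx and Mkx differed less, with gaps of -0.32 and -0.28, at values under 6 on all 3 arrays. Trapezius values of several of these genes were near those of the masseter, where Chad was at 2.88, Tnc at 2.89 and Comp at 3.60.

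Other matrix genes were lower to a smaller extent. Of 16 extracellular matrix and fibroblast genes, 13 lay below both, 0 by at least 1, and 0 above both, with a median difference of -0.43. Col1a1, a chain of type I collagen, was at 9.15 in the trapezius, 9.88 in the supraspinatus and 10.25 in the triceps. Decorin, Dcn, was at 9.91 in the trapezius, 10.48 in the supraspinatus and 10.46 in the triceps, the lowest of the 9 arrays. Genes on no list with matrix roles were Thbs2, at 5.35 in the trapezius, 6.68 in the supraspinatus and 6.65 in the triceps, and Ccn2, a matricellular growth factor, at 4.86, 6.32 and 6.38 in the same order, while the dim second probe set of Ccn2 lay between the other arrays. Of 9 markers of cartilage and bone, 7 lay below both, 0 by at least 1, with a median of -0.42. Of these 9 markers, 6 were under 5 on every array compared, where values may be background. Of all genes, 31.6% lay below both.

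Muscle genes without a matrix role were among the lower ones too. Kcng4, a potassium channel subunit, was at 5.49 in the trapezius, 7.01 in the supraspinatus and 7.31 in the triceps, and at 5.79 in the soleus. Tbc1d1, a regulator of glucose transporter traffic, was at 6.47 in the trapezius, 7.71 in the supraspinatus and 7.78 in the triceps, and at 6.53 in the soleus, with a gap of -0.39 on its dimmer probe set. Mical2, an actin-oxidising enzyme, was at 6.83 in the trapezius, 8.20 in the supraspinatus and 8.91 in the triceps, with 6.27 in the soleus, 5.13 in the masseter and 5.27 in the digastric. Smox, spermine oxidase, had a gap of -0.96 and was at 5.38 in the soleus, 5.78 in the masseter and 5.17 in the digastric. Low values of Mical2 and Smox were thus not limited to the soleus among the other muscles. For Kcng4 and Tbc1d1 the soleus was the lowest of the 6 muscles not compared, and the trapezius the lowest of all 9. Mss51 was at 4.51 in the trapezius, 5.81 in the supraspinatus and 5.75 in the triceps, far under the 11.12 of the masseter.

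Genes that record position along the body and limb were mostly near the array medians. The trapezius lay outside by at least 1 for 2 of them. Irx5, a homeobox gene, was at 5.65 in the trapezius, 3.58 in the supraspinatus and 4.29 in the triceps, and 6.01 in the masseter. Hoxa9 was at 2.72 in the trapezius, 4.29 in the supraspinatus and 3.95 in the triceps. Hoxa10, which the study's title names, was at 3.31 in the trapezius, 3.81 in the supraspinatus and 4.08 in the triceps. In Hox groups 5 to 8, 6 of 11 genes lay below both and 1 above, which was Hoxd8, at 6.36 in the trapezius, 4.46 in the supraspinatus and 5.58 in the triceps. In groups 9 to 13, 6 of 15 lay below both and 4 above, and in groups 1 to 4, 1 of 10 below and 2 above. Over all genes the shares were 31.6% below both and 29.4% above both, and a link of these counts to position was not tested.

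Hoxa4 was the member of groups 1 to 4 with the largest gap, at 5.34 in the trapezius, 4.66 in the supraspinatus and 4.70 in the triceps, and the trapezius was the highest of the 9 arrays for Hoxa4 and Hoxd8. The limb factor list had 4 of 19 genes above and 9 below both, with Lbx1 among those below, a factor of migrating limb muscle precursors, at 5.47 in the trapezius, 5.84 in the supraspinatus and 6.31 in the triceps. Of 14 head and neck muscle factors, 2 lay above and 6 below both, with a median of -0.12. Beside these limb and head counts, 29.4% of all genes lay above both and 31.6% below both. Tbx1, a factor of pharyngeal muscle precursors, was at 7.38 in the trapezius, 7.73 in the supraspinatus and 5.47 in the triceps, and so stood apart in the triceps and not in the trapezius. Most of these genes were under 5 on all 3 arrays.

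**Figure D5:**
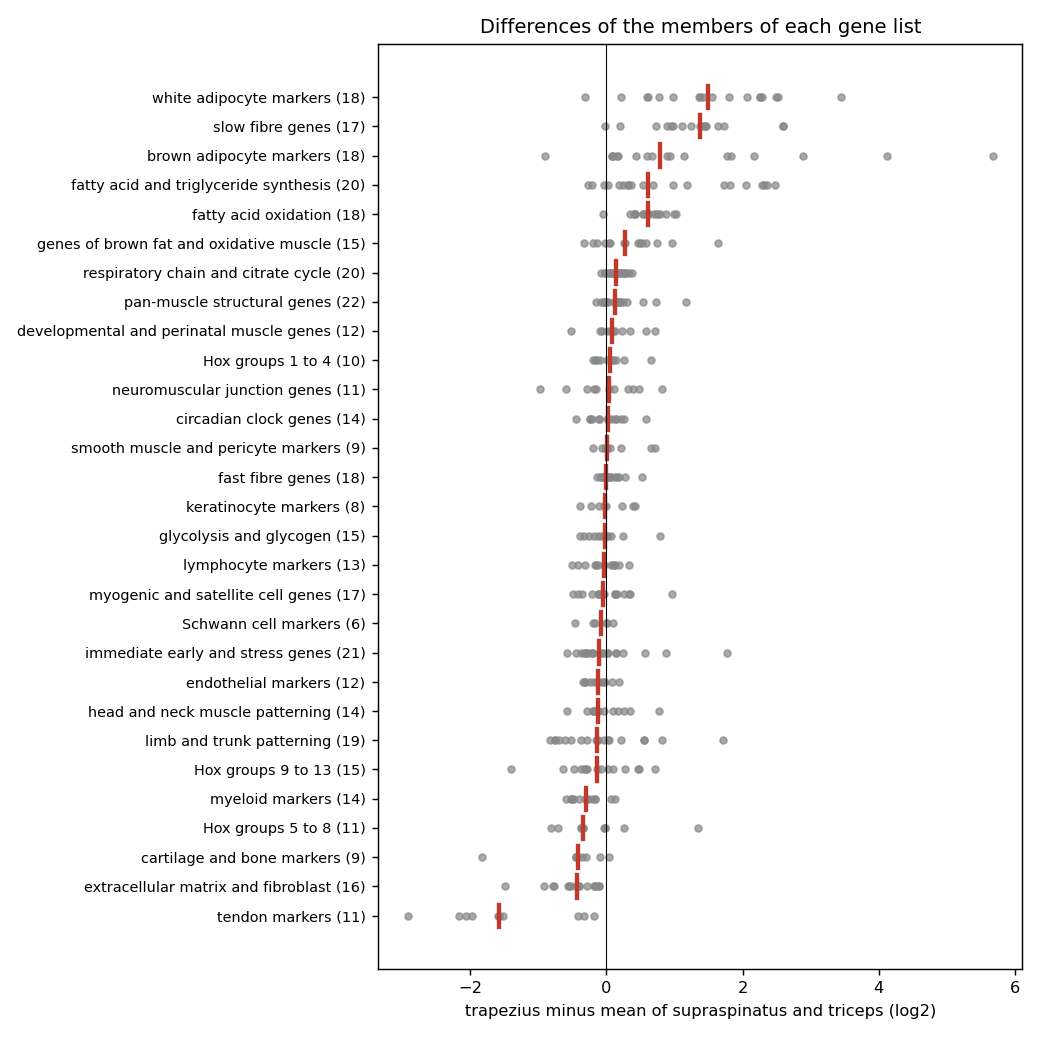
Trapezius minus the mean of the supraspinatus and triceps (log2) for every measured member (grey points) of 29 gene lists, with the list median as a red line and the number of measured genes in brackets. The white adipocyte and slow fibre lists lie at the top, with medians of 1.49 and 1.37, and the tendon list at the bottom, with -1.58.

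Markers of other cell types gave small differences. Of 12 endothelial markers 1 lay above and 6 below both, with a median of -0.12, and of 9 smooth muscle and pericyte markers 3 lay above and 2 below, with a median of 0.01. Of 14 myeloid markers 0 lay above and 5 below both. Their median was -0.30, made of 0.10 against the supraspinatus and -0.68 against the triceps, on whose array they were high. Lymphocyte markers had 5 of 13 above and 5 below (median -0.04), Schwann cell markers 0 of 6 above and 3 below (median -0.09) and keratinocyte markers 3 of 8 above and 3 below (median -0.02). None of these markers was outside both arrays by 1. Of all genes, 29.4% lay above both and 31.6% below both. All 13 lymphocyte markers, all 8 keratinocyte markers and 4 of the 6 Schwann cell markers were under 5 on all 3 arrays. Such low values may be background, where a difference could be missed.

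Myogenic and satellite cell genes had 6 of 17 members above and 7 below both (median -0.05), and developmental muscle genes 4 of 12 above and 1 below (median 0.09). The stem cell factor gene Pax7 was at 4.44 in the trapezius, 4.46 in the supraspinatus and 4.65 in the triceps. Myostatin, Mstn, which limits muscle growth, was at 7.19 in the trapezius, 6.70 in the supraspinatus and 5.75 in the triceps. Of 11 neuromuscular junction genes 5 lay above and 5 below, with a median of 0.03. Within that list the acetylcholinesterase gene Ache was at 5.04 in the trapezius, 5.91 in the supraspinatus and 6.12 in the triceps, and the agrin receptor gene Lrp4 at 5.63, 4.81 and 4.82 in the same order.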

How the data were processed

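The authors deposited 1 log2 value for each probe set and array, made with GCRMA per the submitters' processing notes, a method of background correction and normalization whose version and settings those notes do not list. The log base and scale were read from the values, and no source used here names a genome build. No detection calls were used.

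Of 41345 probe sets, 23521 named 1 gene, 1814 several and 16010 none. Symbols were updated through Entrez identifiers to GRCm38.p6 (23328 matched). The probe set with the highest mean over the 9 arrays stood for each gene. Of 458 entries in 29 gene lists, 423 were measured and 35 were not. Samples were grouped by the muscle label.

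Named genes are the 25 with the largest gap in each direction with a value of at least 5 on 1 of the 3 arrays, any list member, and fixed gene pairs. Predicted genes and similar symbols were left out. The members and lists were chosen with earlier results of these data known. Any other gene named (such as Letmd1, Myom3, Smtnl1, Angptl4, Agbl1, Klb, Adig and Lmod1), and the added gene pairs, were chosen after their values were seen. Medians of lists are of the trapezius minus the mean of the 2 other arrays. The gap computation was tested on simulated data. Python 3.11.15, pandas 2.3.3, numpy 2.4.6 and matplotlib 3.10.9 were used. Precision is limited by having 1 array per muscle.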

Additional observations from a re-analysis of the deposited data

Results flagged for a closer look

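Probe sets with no single gene were outside the comparisons and are given as counts. Of 16010 probe sets with no gene named, 26 lay above both arrays by at least 1 in the trapezius with a value of at least 5, and 29 lay below both by at least 1 with a value of at least 5 on 1 of the 3 arrays. Of 1814 probe sets with several genes named, 2 lay above in this way. They were noted as a signal in data that no comparison used, and what they measure was not tested.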

How the results depend on the processing

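Each result was recomputed with median centring, quantile normalization, arrays scaled to equal mean and SD, probe sets averaged per gene, only genes of at least 5, either comparison array alone, all 8 other arrays, and, for the counts, a gap of 2. The 95 genes above and 27 below both became 160 and 81 against the supraspinatus alone, 348 and 245 against the triceps alone, 51 and 1 against all 8 other arrays, and 20 and 2 at a gap of 2. The count below was 16 with only genes of at least 5. These alternatives ask for more or fewer arrays, a larger gap or brighter genes by construction. The brown adipocyte median was 0.96 against the triceps alone. Against all 8 other arrays the white adipocyte median was 1.83 and the slow fibre median 0.82 (the cause was not tested). The fast fibre median was 0.054 with median centring, -0.18 with arrays scaled to equal spread and 0.14 against all 8 others, so it has no settled sign. Median centring moved the median of all genes to 0.053. The white adipocyte median stayed between 1.43 and 1.83, the brown between 0.68 and 0.96, the slow fibre between 0.82 and 1.49 and the tendon between -1.66 and -1.52. All 50 genes named by gap kept their direction in the settings that did not use all 8 other arrays, and 37 lay outside all 8 in that direction. Against either comparison array alone, and with only genes of at least 5, the choice of these genes fixed the direction in advance. Of the 41 with a gap of at least 1, 23 kept one of that size against all 8, and 39 with probe sets averaged, where Ccn2 was at -0.63 and Tbc1d1 at -0.86. With no replicates, single genes have no error, and low values may be background. No paired analysis was possible because each muscle has 1 array and no test was made.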

Other observations

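The supraspinatus array carried a smaller signal of the same brown fat genes. Cidea was at 5.69 and Ucp1 at 5.10 there, with Cidea at 5.22 in the soleus, whereas on the 7 arrays other than the trapezius and supraspinatus Ucp1 was at most 2.72. Slc27a2, Elovl3 and Otop1 were at 1.78, 2.12 and 3.22 in the supraspinatus, within or near the range of the other muscles.

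Calponin, Cnn1, had the largest gap of the smooth muscle list and was at 4.55 in the trapezius, 3.83 in the supraspinatus and 3.83 in the triceps, and Lmod1, a leiomodin of smooth muscle that is on no list, at 6.37, 5.19 and 5.09 in the same order. Of 14 clock genes 4 lay above and 5 below both (median 0.03), and of 21 immediate early and stress genes 6 above and 10 below (median -0.12). The heat shock gene Hspa1b was the 1 member of those lists outside by 1, at 5.99 in the trapezius, 4.66 in the supraspinatus and 3.79 in the triceps, with 6.26 in the soleus.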
